A study of Capra hircus with 9 samples.

Results

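Late lactation was compared with late gestation in the mammary gland of Laoshan dairy goats, a gland that was still secreting milk against one that was being prepared for birth. The comparison covered 667 of the 1359 mature miRNAs of the count table, 359 known and 308 predicted, chosen by a level of at least 0.5 CPM (counts per 1000000 counts of the library) in 3 or more of the 6 libraries of both stages. The study sequenced small RNA from glands along the lactation cycle to follow which miRNAs change from stage to stage. Goats in late lactation (LL) had given birth 240 days earlier, and those in late gestation (LG) had been mated 140 days earlier. Each stage had 3 goats, with 1 library from each. All goats were healthy, about 4 years old and of the third parity, kept under the same conditions. Tissue was taken from the same side of the udder after slaughter, so each goat contributed to 1 stage only. The libraries of the dry period (DP, 300 days postpartum), also 3, served only as context.

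A miRNA is a short RNA cut from a hairpin precursor, whose 5p and 3p arms can each be loaded onto an Argonaute protein and then lower the stability and translation of mRNAs with matching sites. In the mammary gland, milk is made by luminal epithelial cells, ejected by contractile myoepithelial cells and fed by a bed of stroma, vessels and immune cells, and each of these cell types has characteristic miRNAs. During gestation the epithelium proliferates and differentiates, and in the course of lactation cells are gradually lost while secretion goes on. Many miRNA genes lie in clusters that are transcribed together, so that neighbouring hairpins are often expressed side by side.

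The counts of a library summed to between 16451436 and 24616668 in LL and between 21301913 and 34378995 in LG, and the 667 miRNAs held between 99.9895% and 99.9935% of them. For a miRNA at 0 counts, 3 counts set the upper limit, which was between 0.0873 and 0.182 CPM and covers counting error only. Libraries of the same stage all differed by more than sampling noise (the chi-square divided by its degrees of freedom was 259.95 or more). Levels are given as CPM scaled by the trimmed mean of M values (TMM), in the order of replicates 1 to 3, and log2 fold changes are LL minus LG, with the standard error (SE) from edgeR's quasi-likelihood test and Benjamini-Hochberg adjusted p over all 667. A differentially expressed miRNA (DE-miRNA) passed at an adjusted p under 0.05 with a log2 fold change beyond 1 or −1. Levels of different miRNAs are set side by side only as shares of counts, without correction for length.

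Of the 667 miRNAs, 68 were DE-miRNAs higher in LL (10.2%) and 73 were lower (10.9%), 21.1% in all. At most 1 library of 1 stage reached 0.5 CPM for 79 of the 667, which thus passed the filter mainly through the other stage, and 32 of these were called. Among the other 588, 54 were called higher in LL and 55 lower. Among the known miRNAs 34 rose and 48 fell, and among the predicted ones 34 rose and 25 fell. Higher in LL were 5 of 7 tested immune miRNAs (arms of miR-146b, miR-155 and miR-223), 5 of 6 arms of the miR-29 family, miR-103/107 and miR-135a. The immune chi-miR-146a and chi-miR-150 were not called, and the calls of both miR-146b arms and of chi-miR-155-5p were lost without some single libraries. The miR-424, miR-450 and miR-542 cluster, miR-30a and miR-30f, 7 of 20 tested arms of the miR-17-92 family and 15 of 59 tested members of the imprinted DLK1-DIO3 locus were lower. The DE-miRNAs that fell held 7.49% ± 0.520 (SD, n = 3) of all LG counts, and their share in LL was 2.22% ± 0.109 (SD, n = 3). Those that rose held 0.812% ± 0.277 (SD, n = 3) of all LG counts, and their share in LL was 2.92% ± 1.22 (SD, n = 3), so the miRNAs that carry most of the counts were largely outside both sets. With levels scaled by TMM, the 3 libraries of LL did not overlap with those of LG for 321 of the 667 miRNAs (48.1%), and for each of the DE-miRNAs.

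The scaling of the libraries weighed on the numbers. The median log2 fold change of the 667 was −0.04 with TMM and −0.41 with library size only, which gave 37 DE-miRNAs higher in LL and 123 lower. Under TMM, upper quartile scaling, library size only and TMM without chi-miR-148a-3p alike, 102 were called, 37 higher and 65 lower. Leaving out each library in turn gave between 49 and 71 DE-miRNAs higher in LL and between 56 and 74 lower, and 78 of the calls were made each time (35 higher, 43 lower). The plot of level against difference shows how they spread over the levels, with 74 of the DE-miRNAs at 10 CPM or more in the higher stage and 10 above 1000 CPM.

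**Figure D1:**
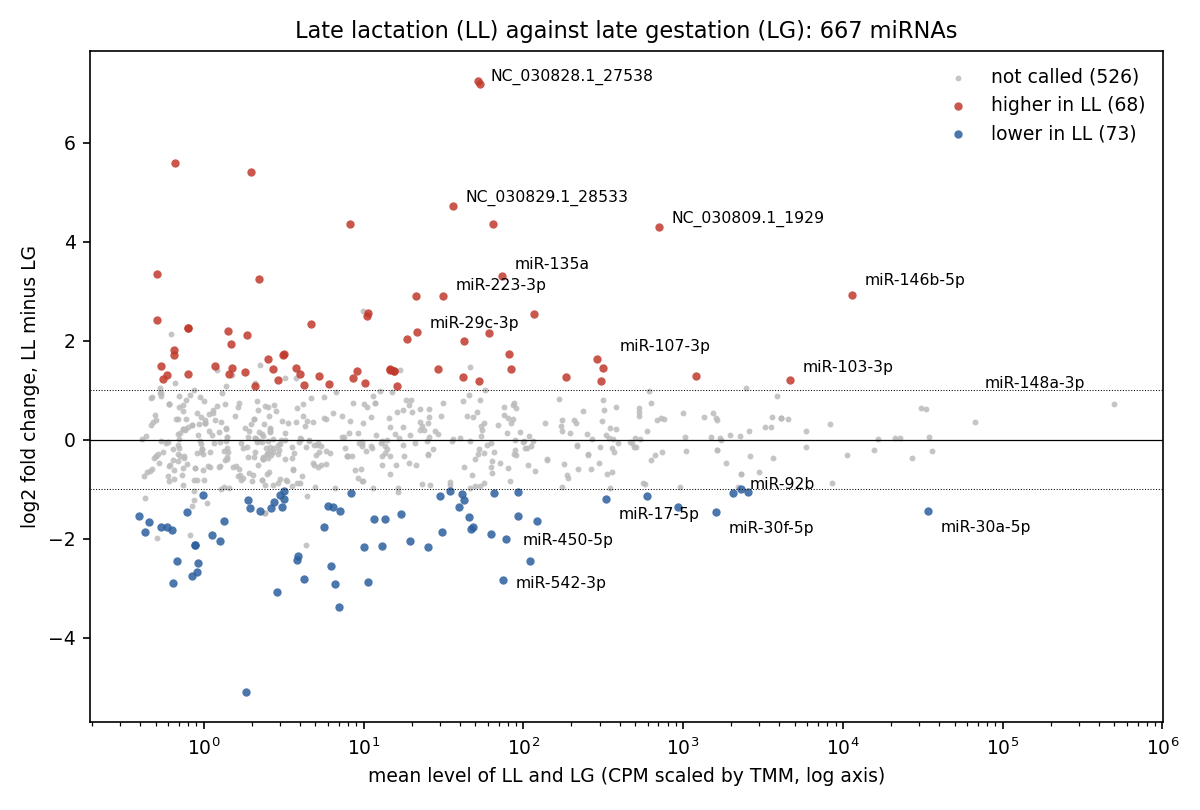
Each point is 1 of the 667 miRNAs, with the mean of LL and LG in CPM scaled by TMM on a log axis and the log2 fold change of LL minus LG on the vertical axis. Red points (68) were called higher in LL, blue points (73) lower and grey points were not called, with dotted lines at a log2 fold change of 1 and −1.

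Both stages were dominated by the same miRNAs. chi-miR-148a-3p, an abundant miRNA of lactating glands and of milk and a repressor of the DNA methyltransferase DNMT1, held 59.4%, 48.4% and 53.1% of the counts in LL and 43.5%, 44.6% and 39.4% in LG. The highest share in LG lay below the lowest in LL, and the difference of its level (log2 fold change 0.71, SE 0.20, adjusted p = 0.0306) stayed under the limit on fold change. Of the 10 most abundant miRNAs of each stage, 9 were shared. They were chi-miR-148a-3p, chi-miR-143-3p, chi-miR-99a-5p, chi-miR-26a-5p, chi-let-7i-5p, chi-miR-21-5p, chi-let-7f-5p, chi-let-7g-5p and chi-miR-200b, and none of them was a DE-miRNA. Ranks 2 to 10 together held 27.4% ± 2.84 (SD, n = 3) of all LL counts, and in LG their share was 34.7% ± 1.16 (SD, n = 3). Without the counts of chi-miR-148a-3p these shares were 59.1% ± 0.950 and 60.3% ± 0.884. The 2 miRNAs that were not shared were both DE-miRNAs. chi-miR-30a-5p ranked 3 in LG, with 5.64% ± 0.444 (SD, n = 3) of the counts, and 11 in LL, with 1.59% ± 0.0607 (SD, n = 3). chi-miR-146b-5p ranked 10 in LL, with 1.77% ± 1.06 (SD, n = 3), and 36 in LG, with 0.291% ± 0.249 (SD, n = 3).

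Markers of epithelium were high in both stages. The 8 tested miRNAs of the miR-200 and miR-183, miR-96 and miR-182 families, which maintain the epithelial state or are characteristic of epithelia, summed to 36125, 39152 and 30419 CPM in LL against 41243, 38635 and 38403 CPM in LG. With library size only, chi-miR-200a (−1.23) and chi-miR-141 (−1.26) were called lower. With TMM none was a DE-miRNA, and their median log2 fold change was −0.49 (−0.04 over all 667). chi-miR-200a had 5924, 6365 and 5777 CPM in LL against 10845, 10359 and 11799 CPM in LG (log2 fold change −0.87, SE 0.12, adjusted p = 0.00242). Its libraries did not overlap, and those of chi-miR-141 did not either (log2 fold change −0.87, SE 0.17, adjusted p = 0.00909), but both fold changes stayed within the limit. chi-miR-200b, on the same chromosome as chi-miR-200a, had 21804, 24328 and 18572 CPM against 22067, 21332 and 19487 CPM, values that overlapped. In bulk tissue, fewer cells of a type and less RNA per cell cannot be told apart, and this holds for every level given here. chi-miR-205 and chi-miR-375 were not analysed here.

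Of the markers of other structural cell types, 2 skeletal muscle miRNAs were DE-miRNAs. The 4 arms of miR-143 and miR-145, of smooth muscle and myoepithelium, had a median log2 fold change of 0.61 and no DE-miRNA. Without LL replicate 1, LL replicate 3 or LG replicate 2, 1 of them was called higher, and without LG replicate 1, 2 were. chi-miR-145-3p lay just under the limit, with 735, 945 and 769 CPM in LL against 504, 437 and 292 CPM in LG (log2 fold change 0.99, SE 0.22, adjusted p = 0.0142), and 2 of the 4 scalings, DESeq2, limma-voom and the fit with a replicate block called it. The 8 fibroblast entries (miR-199, miR-214) had a median of 0.29, no DE-miRNA and overlapping libraries throughout. They are not 8 separate measurements, because miR-199b and miR-199c had equal counts on both arms and chi-miR-199a-3p differed from them by at most 0.12%. With such counts taken once, 5 entries were left, with a median of 0.19 and sums of 6037, 7769 and 10766 CPM in LL and of 6456, 7219.8 and 6614 CPM in LG. chi-miR-126-3p, which lies in the endothelial gene EGFL7, had 15081, 15563 and 19518 CPM against 17271, 16092 and 16361 CPM (log2 fold change 0.01, SE 0.14, adjusted p = 0.963). Of 6 skeletal muscle miRNAs, chi-miR-133a-5p and chi-miR-133b were called higher in LL (33.3%, against 10.2% of all 667), at 1.72 and 4.07 CPM on average. The calls of both were lost without 4 or more of the 6 libraries, with library size only and with all 9 libraries in 1 fit. The list summed to 746, 657 and 804 CPM in LL and to 484, 587 and 425 CPM in LG, with a median of 0.65. chi-miR-206, in a cluster with chi-miR-133b, went the other way, at 3.08 CPM in LL against 5.18 CPM in LG on average (log2 fold change −0.73, SE 0.56, adjusted p = 0.364). chi-miR-1, the most abundant of the 6, had 628, 561 and 702 CPM in LL against 407, 511 and 361 CPM in LG (log2 fold change 0.56, SE 0.18, adjusted p = 0.0473).

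Immune cell miRNAs had the highest median of the marker lists. Of 7 tested, 5 were called higher in LL (71.4%, against 10.2% of all 667) and none lower, with a median log2 fold change of 2.53, and their summed level was 30413, 26181 and 7199 CPM in LL against 5995, 2508 and 1278 CPM in LG. chi-miR-146b-5p, induced by NF-kB and known to restrain its signalling, made up most of both sums. Its level was 28833, 24997 and 6329 CPM in LL against 5344, 1775 and 848 CPM in LG, a fold change of 7.55 (log2 fold change 2.92, SE 0.77, adjusted p = 0.0256). The lowest LL library was close to the highest LG library, and the spread within each stage was wide. As a share of counts, LL replicate 3 (0.553%) lay below LG replicate 1 (0.574%), so the stages overlapped before TMM scaling. Its passenger arm chi-miR-146b-3p followed it, with 289, 231 and 77.1 CPM against 62.2, 25.6 and 15.3 CPM (log2 fold change 2.53, SE 0.63, adjusted p = 0.0206). The call of chi-miR-146b-5p was lost without LL replicate 1 (2.56, adjusted p = 0.0753), LL replicate 2 (2.79, adjusted p = 0.0675), LG replicate 2 (2.70, adjusted p = 0.0773) or LG replicate 3 (2.49, adjusted p = 0.0575), and that of chi-miR-146b-3p without LL replicate 1 (2.16, adjusted p = 0.0637), LL replicate 2 (2.48, adjusted p = 0.056), LG replicate 2 (2.36, adjusted p = 0.0655) or LG replicate 3 (2.18, adjusted p = 0.053). Without LG replicate 1 the log2 fold changes were 3.93 (adjusted p = 0.0108) and 3.29 (adjusted p = 0.0108).

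chi-miR-223-3p, a miRNA of neutrophils and other myeloid cells at chrX:21156880-21156986 of the goat genome ARS1.2, had 108, 25.8 and 33.7 CPM in LL against 11.5, 4.85 and 6.05 CPM in LG (log2 fold change 2.89, SE 0.60, adjusted p = 0.0106). LL replicate 1 stood well above the other LL libraries, and without it the log2 fold change was 2.005 (adjusted p = 0.0204). The other arm, chi-miR-223-5p, had 70.8, 17.1 and 24.3 CPM and 8.20, 3.45 and 3.39 CPM (log2 fold change 2.90, SE 0.61, adjusted p = 0.0112), and 2.06 (adjusted p = 0.0249) without that library. Both arms were called in each fit without 1 library. chi-miR-155-5p, of activated lymphocytes and macrophages, had 525, 387 and 365 CPM in LL against 166, 273 and 124 CPM in LG (log2 fold change 1.18, SE 0.30, adjusted p = 0.0222), and lost its call without LL replicate 1 (1.02, adjusted p = 0.0662), LG replicate 1 (1.1002, adjusted p = 0.0639) or LG replicate 3 (0.96, adjusted p = 0.0514), and with library size only (0.83). The remaining members did not pass. chi-miR-146a had 506, 407 and 248 CPM against 291, 306 and 165 CPM, and chi-miR-150, of resting lymphocytes, had 80.2, 116 and 122 CPM against 113, 121 and 115 CPM (log2 fold change −0.13, SE 0.19, adjusted p = 0.671). The list as a whole kept between 2 and 5 calls when each library was left out, with 2 without LL replicate 1 or LG replicate 3.

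Of the red blood cell cluster miR-144 and miR-451 (chr19:20067872-20068116), 2 of 3 tested arms were called higher in LL (66.7%, against 10.2% of all 667). chi-miR-144-3p did not pass (log2 fold change 0.68, adjusted p = 0.117). chi-miR-451-5p had 524, 476 and 309.7 CPM in LL against 90.7, 169 and 166 CPM in LG, a 3.07-fold difference (log2 fold change 1.62, SE 0.30, adjusted p = 0.0068) that was called without any 1 library but not with all 9 libraries in 1 fit, where it was 1.65 (adjusted p = 0.12). chi-miR-144-5p had 5.52, 3.85 and 2.60 CPM and 1.39, 0.742 and 2.20 CPM (log2 fold change 1.43, SE 0.45, adjusted p = 0.0495) and lost its call without LL replicate 1 (1.14, adjusted p = 0.139), LL replicate 2 (1.51, adjusted p = 0.0926), LG replicate 1 (1.40, adjusted p = 0.108) or LG replicate 2 (1.13, adjusted p = 0.105). The part that blood and immune cells in the tissue had in the other differences was not tested.

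The miR-29 family, whose members target mRNAs of collagens and of DNA methyltransferases, was higher in LL on most arms. Of 6 arms, 5 were called higher in LL (83.3%, against 10.2% of all 667), in each fit without 1 library as well, with a median log2 fold change of 1.36. chi-miR-29a-3p, the most abundant, had 1747, 1643 and 1758 CPM in LL against 825, 617 and 661 CPM in LG (log2 fold change 1.29, SE 0.16, adjusted p = 0.00144). The LL libraries lay close to each other and well above the highest LG library. chi-miR-29b-3p had 122, 95.5 and 149 CPM against 52.3, 45.5 and 37.8 CPM (log2 fold change 1.43, SE 0.22, adjusted p = 0.00345). chi-miR-29c-3p had the largest change, with 38.0, 27.2 and 40.4 CPM against 7.87, 5.98 and 9.61 CPM (log2 fold change 2.17, SE 0.26, adjusted p = 0.00144), while its other arm chi-miR-29c-5p rose by less (log2 fold change 1.18, SE 0.22, adjusted p = 0.00726). chi-miR-29a-5p, at 4.99, 3.43 and 6.09 CPM in LL against 4.36, 2.27 and 3.83 CPM in LG, did not pass. Hairpins of the family lie on different chromosomes, with miR-29a at chr4:25550447-25550533 and miR-29c at chr16:74270116-74270229. With library size only, 3 of the 6 were called, and chi-miR-29a-3p had a log2 fold change of 0.93.

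Among 16 tested miRNAs connected with milk lipid synthesis, 2 rose and 1 fell (18.8%, against 21.1% of all 667), with a median of 0.24. Those that rose were chi-miR-103-3p and chi-miR-107-3p, close relatives that lie in the pantothenate kinase genes PANK2 (chr13:50646831-50646916) and PANK1 (chr26:40101418-40101504) and are known for effects on insulin sensitivity and lipid metabolism. chi-miR-103-3p had 6484, 6938 and 6161 CPM in LL against 3307, 2556 and 2662 CPM in LG (log2 fold change 1.20, SE 0.15, adjusted p = 0.00144). chi-miR-107-3p had 437, 459.8 and 479.8 CPM against 164, 176 and 165 CPM (log2 fold change 1.45, SE 0.14, adjusted p = 0.000827). Both were among the most even differences of the comparison, with libraries of 1 stage close to each other and a clear gap between stages, and both were called without any 1 library. The log2 fold change of chi-miR-103-3p was 0.85 with library size only, below the limit. chi-miR-130b-3p fell (log2 fold change −1.23, SE 0.32, adjusted p = 0.0246) at 0.907, 1.14 and 1.35 CPM in LL against 1.90, 3.10 and 3.03 CPM in LG, and the call was lost without LL replicate 1 (−1.08, adjusted p = 0.0711), LL replicate 2 (−1.17, adjusted p = 0.0732), LG replicate 2 (−1.11, adjusted p = 0.0737) or LG replicate 3 (−1.12, adjusted p = 0.0728). Of the others, chi-miR-148a-3p, chi-miR-21-5p (38368, 28135 and 46774 CPM against 20060.2, 29459.9 and 22773 CPM) and chi-miR-27a-3p (1653, 1741 and 2132 CPM against 1193, 1412 and 1499.7 CPM) had positive log2 fold changes of 0.71, 0.65 and 0.43 and were not called. The log2 fold change of chi-miR-378-3p, which lies in PPARGC1B, was −0.37 (adjusted p = 0.222).

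The known miRNA with the largest rise was chi-miR-135a (chr22:48686064-48686153, outside other annotated genes). It had 181, 151 and 68.6 CPM in LL against 16.4, 15.8 and 8.14 CPM in LG, a 9.95-fold difference (log2 fold change 3.31, SE 0.43, adjusted p = 0.00191), and its level in DP was 15.3, 12.5 and 12.7 CPM. The lowest LL library lay well above the highest LG library, and the call held without any 1 library. miR-708 (chr29:16073407-16073520) rose on both arms. chi-miR-708-5p had 35.2, 76.1 and 92.0 CPM against 10.8, 21.6 and 18.8 CPM (log2 fold change 1.99, SE 0.40, adjusted p = 0.00939), and chi-miR-708-3p had 66.9, 88.6 and 218 CPM against 22.4, 42.7 and 46.7 CPM (log2 fold change 1.74, SE 0.48, adjusted p = 0.0294). The call of the 3p arm was lost without LL replicate 3 (1.09, adjusted p = 0.0522), LG replicate 1 (1.48, adjusted p = 0.0729), LG replicate 2 (1.85, adjusted p = 0.0644) or LG replicate 3 (1.94, adjusted p = 0.0553), and with library size only (1.36). miR-335, which lies in the imprinted gene MEST, also rose on both arms, with 165, 98.9 and 36.4 CPM against 31.1, 20.5 and 16.2 CPM for chi-miR-335-3p (log2 fold change 2.14, SE 0.52, adjusted p = 0.019) and 52.9, 22.8 and 14.8 CPM against 9.70, 5.68 and 6.67 CPM for chi-miR-335-5p (log2 fold change 2.03, SE 0.47, adjusted p = 0.0157). LL replicate 1 was highest for both arms. The call was lost without LL replicate 1 (1.58, adjusted p = 0.0538), LG replicate 2 (2.08, adjusted p = 0.0577) or LG replicate 3 (1.95, adjusted p = 0.0648) for the 3p arm, and without LG replicate 2 (1.88, adjusted p = 0.0534) or LG replicate 3 (1.97, adjusted p = 0.0552) for the 5p arm, whose log2 fold change was 1.36 (adjusted p = 0.0298) without LL replicate 1.

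**Figure D2:**
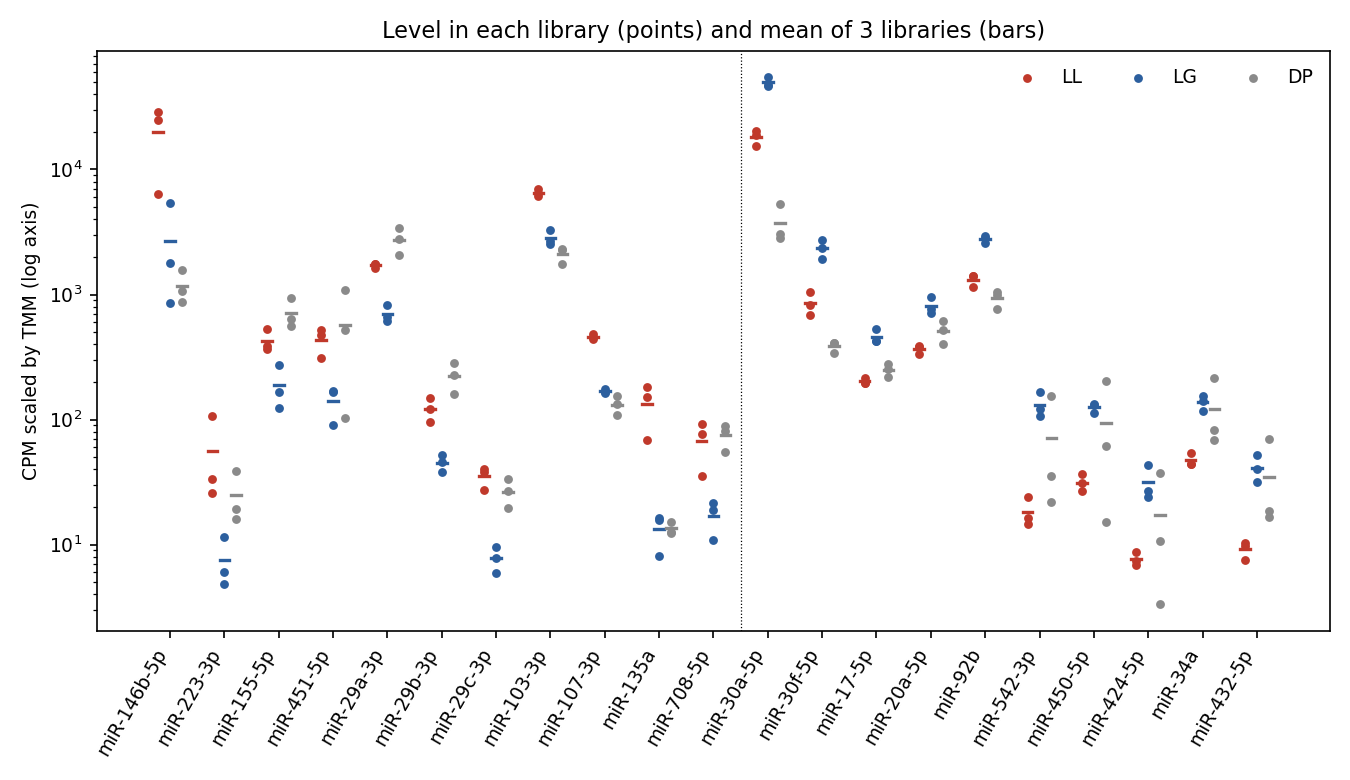
Level of 21 miRNAs in each library, in CPM scaled by TMM on a log axis, for LL (red), LG (blue) and DP (grey), with bars at the mean of 3 libraries. The 11 miRNAs left of the dotted line were called higher in LL and the 10 right of it lower, and in each of them the LL points do not overlap with the LG points.

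Of the 10 DE-miRNAs above 1000 CPM in the higher stage, the largest falls were those of miR-30a and miR-30f, both on chromosome 14, which were lower in LL on all 4 arms. chi-miR-30a-5p (chr14:92200094-92200200) had 20270.5, 15295 and 18996 CPM in LL against 54712, 47726 and 46688 CPM in LG, 2.73-fold lower in LL (log2 fold change −1.45, SE 0.15, adjusted p = 0.00118). The libraries of each stage lay close together, with a wide gap between the stages. chi-miR-30f-5p (chr14:92162547-92162630) had 823, 1048 and 688 CPM against 2749, 2363 and 1933 CPM (log2 fold change −1.46, SE 0.21, adjusted p = 0.00234). The passenger arms fell alike, chi-miR-30a-3p from 1575, 1239 and 1185 CPM in LG to 471, 532.4 and 554 CPM in LL (log2 fold change −1.36, SE 0.16, adjusted p = 0.00144) and chi-miR-30f-3p from 211, 183.5 and 157 CPM to 62.1, 55.8 and 58.1 CPM (log2 fold change −1.65, SE 0.17, adjusted p = 0.00118). All 4 were called under each scaling and without any 1 library. The other 7 arms of the family, of miR-30b, 30c, 30d and 30e, were not called, and their log2 fold changes lay between −0.23 and 0.54. chi-miR-30c-5p, for example, had 2013, 2363 and 1711 CPM against 2123, 2074 and 1501 CPM. The 11 arms had a median of −0.15, and 4 of them were called (36.4%, against 21.1% of all 667).

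The cluster of miR-450, miR-542 and miR-424 on the X chromosome (chrX:11094398-11100824) was lower in LL. Its 4 arms above 2 CPM, which reached 0.5 CPM in both stages, were called lower (10.9% of all 667 were). miR-424 is known for restraining the cell cycle. chi-miR-542-3p had 14.6, 16.5 and 24.1 CPM in LL against 107, 122 and 166 CPM in LG, 7.14-fold lower in LL (log2 fold change −2.84, SE 0.27, adjusted p = 0.000827), the largest fall of a known miRNA above 10 CPM. chi-miR-450-5p had 26.6, 30.8 and 36.7 CPM against 112, 134 and 129.7 CPM (log2 fold change −1.998, SE 0.19, adjusted p = 0.000827). chi-miR-424-5p had 6.88, 7.34 and 8.74 CPM against 23.8, 27.0 and 43.7 CPM (log2 fold change −2.04, SE 0.28, adjusted p = 0.002), and chi-miR-424-3p had 2.57, 4.27 and 4.09 CPM against 13.3, 16.8 and 19.2 CPM (log2 fold change −2.16, SE 0.27, adjusted p = 0.00155). For each of these 4, the highest LL library stayed well below the lowest LG library. The other 2 tested arms passed the filter through LG, so that their calls add nothing to this count. chi-miR-450-3p (log2 fold change −2.48, SE 0.50, adjusted p = 0.00947) and chi-miR-542-5p (log2 fold change −2.45, SE 0.58, adjusted p = 0.0174) lay under 2 CPM in every library. The call of chi-miR-542-5p was lost without LL replicate 1 (−2.47, adjusted p = 0.0529), LL replicate 2 (−1.98, adjusted p = 0.0533) or LG replicate 3 (−2.05, adjusted p = 0.0547), and the log2 fold change of chi-miR-450-3p was −3.34 (adjusted p = 0.00768) without LL replicate 2. In the DP libraries, chi-miR-450-5p ranged from 15.2 to 204.6 CPM, and 1 fit of all 9 libraries called 3 of the 6.

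The miR-17-92 family promotes proliferation and is driven by MYC and E2F factors. Of 20 tested arms of the cluster and its paralogs, 7 were called lower (35%, against 10.9% of all 667) and none higher, 18 had a negative log2 fold change and the median was −0.96. The called chi-miR-19b-5p passed the filter through LG only. Their summed level was 4191, 4289 and 4441 CPM in LL against 8927, 8264 and 8397 CPM in LG. On chromosome 12 (chr12:20403365-20404150), all 11 arms of miR-17, 18a, 19a, 19b, 20a and 92a had negative values and 5 were called. chi-miR-20a-5p had 383, 387 and 337 CPM in LL against 956, 769 and 718 CPM in LG (log2 fold change −1.14, SE 0.16, adjusted p = 0.00234), and chi-miR-17-5p had 214.1, 194.98 and 197 CPM against 535, 426 and 422 CPM (log2 fold change −1.19, SE 0.16, adjusted p = 0.00194). chi-miR-92a-3p, the most abundant, had 1327, 1647 and 1648 CPM against 3266, 3185 and 2799 CPM (log2 fold change −1.001, SE 0.15, adjusted p = 0.00286). It sat at the limit on fold change and was called under 2 of the 4 scalings, and without LL replicate 1 (−0.89, adjusted p = 0.0132), LL replicate 2 (−0.998, adjusted p = 0.0128), LG replicate 1 (−0.96, adjusted p = 0.0115) or LG replicate 2 (−0.98, adjusted p = 0.0145) it was not called. chi-miR-18a-5p (3.40, 3.37 and 4.04 CPM against 9.81, 8.08 and 9.998 CPM) had a log2 fold change of −1.36. chi-miR-19b-3p (129.97, 124 and 102 CPM against 309, 262 and 120.3 CPM) did not pass, and the weak chi-miR-19b-5p, under 2 CPM, did (log2 fold change −1.47, SE 0.32, adjusted p = 0.0124) except without LL replicate 2, where it had −1.33 (adjusted p = 0.052).

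The paralogous cluster miR-106b-25 lies in MCM7, a gene of the replication helicase (chr25:37229609-37230104). Its 6 arms all had negative log2 fold changes, and chi-miR-106b-5p (log2 fold change −1.06, SE 0.18, adjusted p = 0.00473) and chi-miR-93-3p (log2 fold change −1.19, SE 0.25, adjusted p = 0.0104) were called. chi-miR-25-3p had 1531, 1364 and 1625 CPM in LL against 2823, 2649 and 3334 CPM in LG, and chi-miR-93-5p had 250.3, 263 and 194 CPM against 499.3, 445 and 454 CPM. Both had non-overlapping libraries and log2 fold changes just inside the limit (−0.96 and −0.98). The call of chi-miR-106b-5p was lost without LL replicate 2 (−0.93, adjusted p = 0.0271) or LG replicate 3 (−0.93, adjusted p = 0.0139). The third paralog, miR-106a-363, behaved otherwise, with chi-miR-20b at 0.26, chi-miR-106a-5p at 0.03 and chi-miR-363-3p at −0.02 (adjusted p = 0.402, 0.937 and 0.963). chi-miR-92b, which shares the seed of miR-92a, had 1138, 1400.4 and 1406 CPM against 2926, 2835 and 2564 CPM (log2 fold change −1.08, SE 0.15, adjusted p = 0.002), and without LL replicate 1 it had −0.97 (adjusted p = 0.0102). Over the list, library size only called 14 and no filter on low counts 12 of the members.

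The DLK1-DIO3 locus on chromosome 21 is imprinted, and its many miRNAs are expressed from the maternal copy, mainly in embryonic tissues, placenta, brain and muscle. Of 59 tested members, 15 were called lower in LL and 1 higher (27.1% called, 21.1% over all 667), 48 had a negative log2 fold change and the median was −0.69. The called chi-miR-376a passed the filter mainly through LG. The proximal cluster, from miR-493 to miR-136 (chr21:65037152-65053834), had 9 negative values and 5 calls among 9 tested arms. The called arms belong to miR-127, miR-432, miR-433 and miR-136, which lie within the bounds of the gene RTL1. chi-miR-127-3p, the most abundant of the proximal cluster, had 1854, 1475 and 1667 CPM in LL against 2622, 3829 and 3927 CPM in LG (log2 fold change −1.05, SE 0.19, adjusted p = 0.00625). It was not called without LL replicate 2 (−0.92, adjusted p = 0.0344), LG replicate 2 (−0.98, adjusted p = 0.0247) or LG replicate 3 (−0.95, adjusted p = 0.0203). chi-miR-432-5p fell by more, with 9.83, 10.2 and 7.53 CPM against 31.6, 40.1 and 51.6 CPM (log2 fold change −2.16, SE 0.25, adjusted p = 0.00144), and the LL libraries lay closer to each other than those of LG. chi-miR-433 had 2.12, 3.37 and 2.18 CPM against 6.96, 9.13 and 9.98 CPM (log2 fold change −1.76, SE 0.28, adjusted p = 0.00428), and chi-miR-136-5p had 18.2, 17.9 and 20.6 CPM against 38.4, 37.5 and 48.6 CPM (log2 fold change −1.13, SE 0.19, adjusted p = 0.00447).

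The distal cluster, from miR-379 to miR-656 (chr21:65186799-65229058), was mixed. Of 48 tested arms, 9 were called lower and 1 higher (about the same as the 21.1% called of all 667), 37 had negative and 11 positive values, and the median was −0.58. chi-miR-412-5p had 2.04, 1.44 and 1.95 CPM in LL against 7.505, 12.5 and 11.9 CPM in LG (log2 fold change −2.55, SE 0.30, adjusted p = 0.00144), the largest fall of the locus. chi-miR-3959-3p had 7.71, 5.59 and 7.06 CPM against 15.3, 20.001 and 26.6 CPM (log2 fold change −1.60, SE 0.26, adjusted p = 0.00428). Both arms of miR-382 were called (−1.21 and −1.09), as was chi-miR-495-3p, with 51.5, 39.1 and 35.4 CPM against 84.7, 95.8 and 85.4 CPM (log2 fold change −1.08, SE 0.19, adjusted p = 0.00622). The calls of chi-miR-382-5p and chi-miR-495-3p were lost without LL replicate 3 (−0.95, adjusted p = 0.032) or LG replicate 3 (−0.94, adjusted p = 0.0246) and without LL replicate 2 (−0.97, adjusted p = 0.0368) or LL replicate 3 (−0.93, adjusted p = 0.0235), in that order. chi-miR-323a-3p went the other way. It had 18.7, 22.7 and 13.2 CPM in LL against 2.09, 4.59 and 2.64 CPM in LG, a 5.87-fold rise (log2 fold change 2.55, SE 0.36, adjusted p = 0.00232) between hairpins that were not called, and the call was kept without any 1 library. With each library left out, the locus had between 12 and 21 members called lower and 1 to 3 higher, with 21 lower without LG replicate 1. Library size only called 27 lower and 1 fit of all 9 libraries 8.

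**Figure D3:**
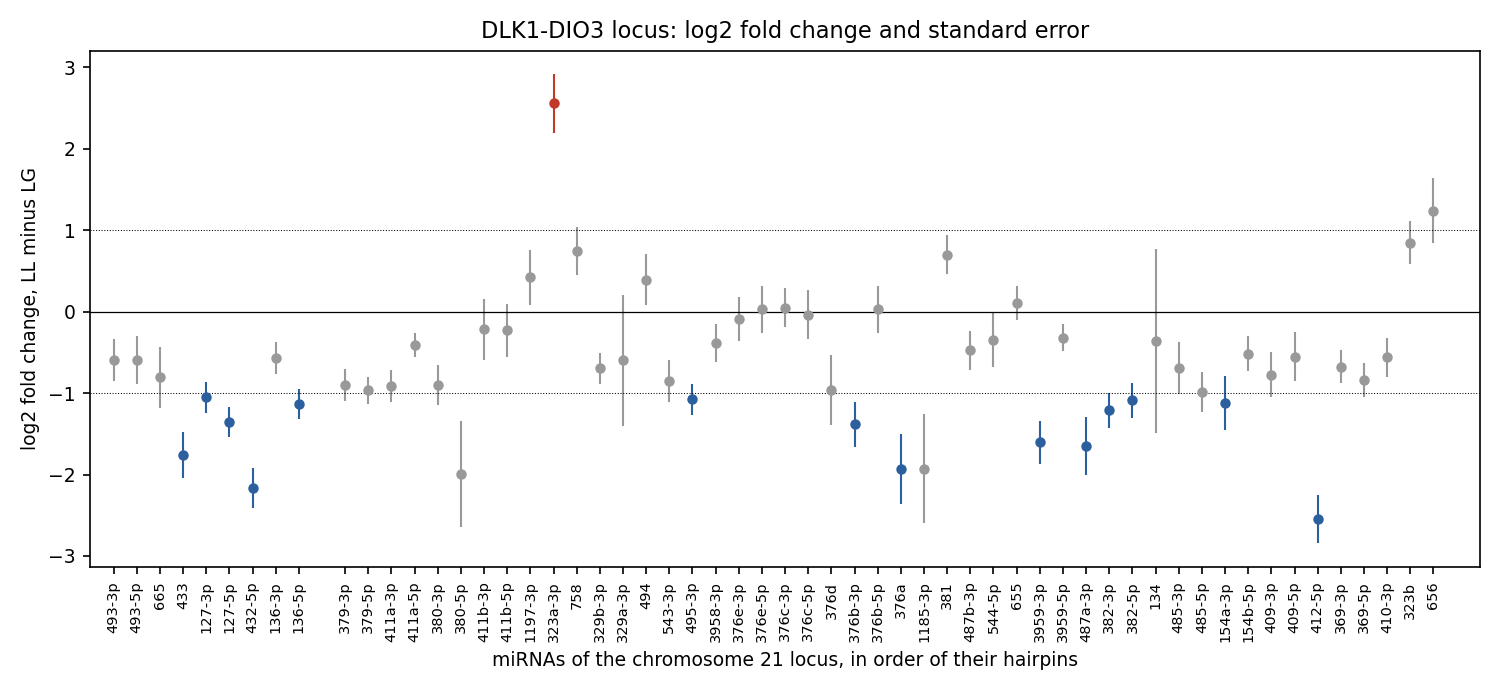
Log2 fold change of LL minus LG with its SE for 57 tested miRNAs of the DLK1-DIO3 locus on chromosome 21, in the order of their hairpins, with a gap between the proximal (9) and the distal cluster (48). Blue points were called lower in LL, the red point (chi-miR-323a-3p, 2.55) higher, and dotted lines mark 1 and −1.

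The cluster of miR-454 and miR-301a in SKA2 (chr19:9742520-9752253) had 3 tested arms that were called lower (10.9% of all 667 were), of which chi-miR-301a-3p passed the filter through LG only. chi-miR-454-3p had 5.37, 3.25 and 3.02 CPM in LL against 10.4, 14.2 and 6.76 CPM in LG (log2 fold change −1.44, SE 0.36, adjusted p = 0.0206), while chi-miR-301a-5p and chi-miR-301a-3p lay under 5 CPM. The call of chi-miR-454-3p was lost without LL replicate 2 (−1.27, adjusted p = 0.0831), LL replicate 3 (−1.24, adjusted p = 0.0714) or LG replicate 2 (−1.15, adjusted p = 0.0644). chi-miR-130b-5p, of the same family by its hairpin, had 9.83, 6.73 and 10.4 CPM against 27.4, 26.3 and 22.6 CPM (log2 fold change −1.5004, SE 0.22, adjusted p = 0.00291) and was called without any 1 library. Both arms of miR-1388 fell. chi-miR-1388-5p had 12.2, 21.9 and 45.6 CPM against 141.1, 70.6 and 87.3 CPM (log2 fold change −1.90, SE 0.48, adjusted p = 0.0222) and lost its call without LL replicate 1 (−1.54, adjusted p = 0.0538), LL replicate 2 (−1.74, adjusted p = 0.0844) or LG replicate 1 (−1.57, adjusted p = 0.0587). Its log2 fold change was −2.53 (adjusted p = 0.00718) without LL replicate 3, the highest of the LL libraries. chi-miR-1388-3p had 6.96, 13.3 and 19.7 CPM against 69.1, 32.0 and 45.1 CPM (log2 fold change −1.87, SE 0.42, adjusted p = 0.0142), and −1.82 (adjusted p = 0.0545) without LL replicate 2.

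The miR-34 family split. chi-miR-34a, a target of p53 that restrains proliferation, was lower in LL, with 54.1, 43.8 and 44.5 CPM against 139.9, 155.3 and 117 CPM (log2 fold change −1.53, SE 0.19, adjusted p = 0.00144). Its LL libraries differed little, and the call held without any 1 library. In the cluster of miR-34b and miR-34c (chr15:60561625-60562446), 2 of 3 tested arms were called higher (10.2% of all 667 were) and chi-miR-34b-3p did not pass (1.41, adjusted p = 0.0522). The levels were 9.68, 11.4 and 15.4 CPM for chi-miR-34c-5p in LL and 4.61, 5.37 and 5.32 CPM in LG (log2 fold change 1.25, SE 0.24, adjusted p = 0.00815). chi-miR-34b-5p (1.81, 1.86 and 2.46 CPM against 0.805, 1.09 and 0.596 CPM) was called too (log2 fold change 1.32, SE 0.33, adjusted p = 0.0206), but not without LL replicate 3 (1.19, adjusted p = 0.0548), LG replicate 1 (1.31, adjusted p = 0.0595) or LG replicate 3 (1.12, adjusted p = 0.065). With library size only, neither of these 2 rises passed (log2 fold changes 0.89 and 0.97), nor did they with all 9 libraries in 1 fit (adjusted p = 0.255 and 0.276).

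**Figure D4:**
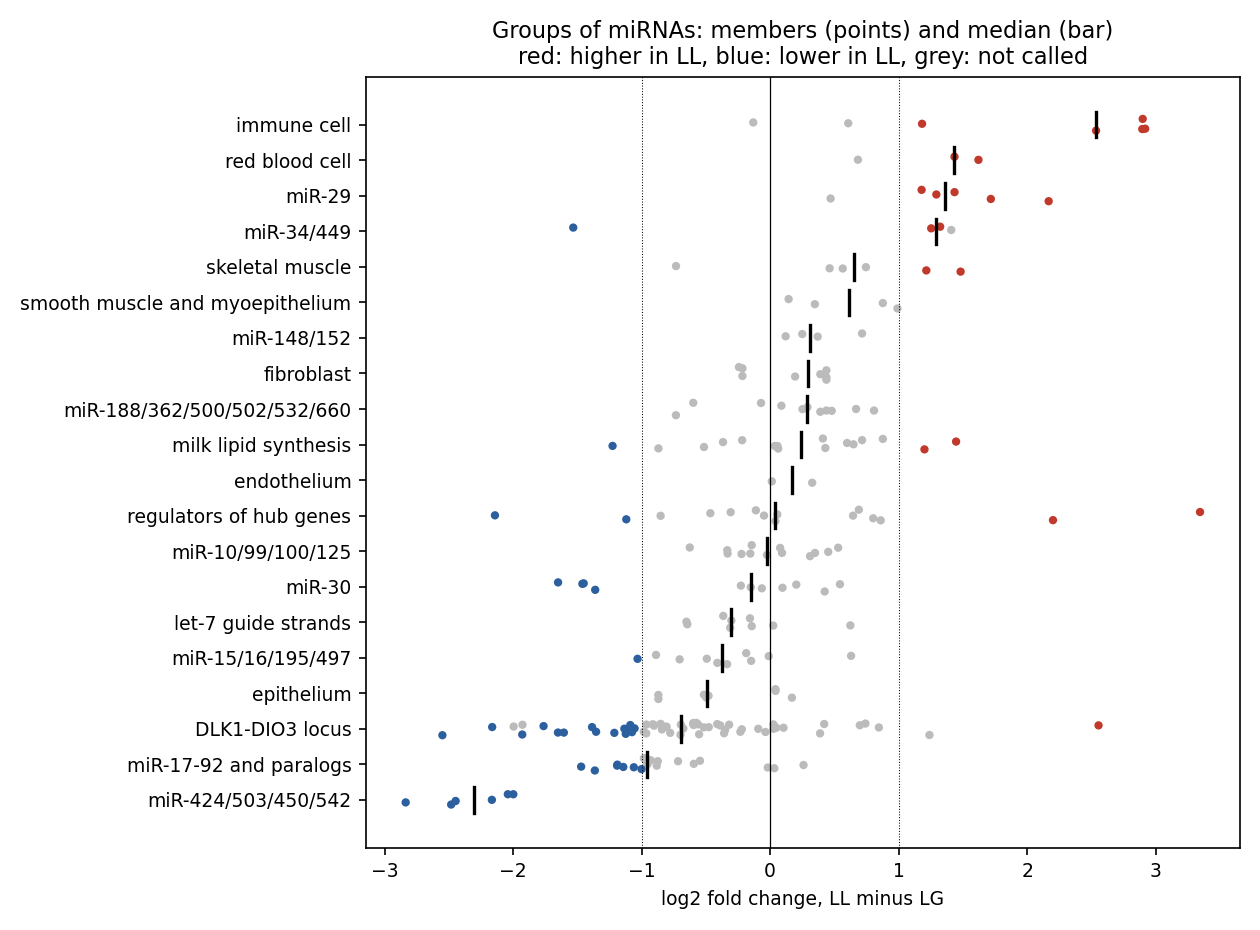
Log2 fold change of LL minus LG for the tested members of 20 groups of miRNAs (points) with their medians (black bars), ordered by median. Red members were called higher in LL, blue ones lower and grey ones neither, and the medians run from −2.31 for the miR-424, miR-450 and miR-542 cluster (2 of its 6 arms passed the filter through LG) to 2.53 for the immune cell miRNAs.

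Other families had no or 1 DE-miRNA, where 21.1% of all 667 were called, as the plot of groups of miRNAs shows. The 9 let-7 guide strands had no DE-miRNA and a median of −0.30, with 7 negative values and 6 members whose libraries did not overlap (48.1% of all 667 did not). chi-let-7d-5p (log2 fold change −0.65, SE 0.16, adjusted p = 0.018) and chi-let-7c-5p (log2 fold change −0.64, SE 0.16, adjusted p = 0.0205) had the lowest values and stayed within the limit on fold change. chi-let-7f-5p had 23395, 25880.2 and 21608 CPM in LL against 32804, 32346 and 26147 CPM in LG, and chi-let-7i-5p had 48484, 42177 and 29617 CPM against 28974, 29744 and 19351 CPM (log2 fold changes −0.37 and 0.62, adjusted p = 0.0935 and 0.0799). The 13 arms of miR-10, miR-99, miR-100 and miR-125 had a median of −0.02, the 4 of miR-148 a median of 0.31 and the 11 of the X-linked miR-188 to miR-660 group a median of 0.29, all without a DE-miRNA. Of 10 arms of miR-15, miR-16, miR-195 and miR-497, only chi-miR-15b-5p was called, a share close to the 10.9% of all 667 called lower (log2 fold change −1.03, SE 0.20, adjusted p = 0.00815), with 28.4, 19.96 and 20.3 CPM against 48.2, 46.9 and 44.99 CPM and a call that was lost without LL replicate 2 (−0.89, adjusted p = 0.0432) or LL replicate 3 (−0.92, adjusted p = 0.0325). The single tested miR-2284 member was not called. With library size only, 2 arms of the miR-15/16 group were called.

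A list of 18 miRNAs held the regulators of hub genes that the paper names, of which 15 were tested. Among them 2 were called higher and 2 lower (26.7%, against 21.1% of all 667), with a median of 0.04. The called NC_030815.1_11506 passed the filter through LL only, so its call adds nothing to this count. The list was picked with the help of these samples and is not independent evidence of a direction. chi-miR-423-3p had 1426, 1795 and 1375 CPM in LL against 1574, 1671 and 1179 CPM in LG, and chi-miR-345-3p had 64.3, 64.0 and 42.5 CPM against 57.1, 58.7 and 68.7 CPM (log2 fold changes 0.06 and −0.11). Their libraries overlapped. The predicted NC_030810.1_5013 was lower in LL, with 3.78, 4.03 and 6.51 CPM against 16.2, 16.1 and 31.2 CPM (log2 fold change −2.14, SE 0.36, adjusted p = 0.00453). NC_030824.1_22296 was higher (log2 fold change 2.20, SE 0.36, adjusted p = 0.00431) at 2.12, 3.13 and 1.72 CPM and 0.403, 0.655 and 0.459 CPM. The other calls were NC_030815.1_11506, higher in LL at up to 1.02 CPM, and chi-miR-2404, lower in LL at up to 1.72 CPM in LG. The call of chi-miR-2404 was lost without LL replicate 1 (−1.09, adjusted p = 0.0722), LL replicate 2 (−1.11, adjusted p = 0.091), LL replicate 3 (−1.07, adjusted p = 0.0953), LG replicate 2 (−1.14, adjusted p = 0.0789) or LG replicate 3 (−0.90, adjusted p = 0.112).

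Predicted miRNAs, found by the authors' miRDeep2 run and named here by their scaffold and number, included the largest differences. NC_030829.1_28533 had 68.2, 70.5 and 71.0 CPM in LL against 2.16, 3.89 and 1.995 CPM in LG, a 26.3-fold rise (log2 fold change 4.72, SE 0.31, adjusted p = 0.000269) that was even over the libraries of each stage. NC_030828.1_27538 had 67.1, 111 and 132 CPM in LL against 0.0732, 0 and 1.72 CPM in LG (log2 fold change 7.24, SE 1.11, adjusted p = 0.00336). It passed the filter mainly through LL. Nearly all of its LG level came from LG replicate 3, and the other LG libraries were under 3 counts, so that without LG replicate 3 no exact fold change can be given. The counts of NC_030828.1_27537 (7.19), which also passed the filter mainly through LL, were within 10% of those of NC_030828.1_27538 in each of the 6 libraries. Both may thus hold largely the same reads and are uncertain as separate miRNAs. NC_030833.1_31828 had 167, 101 and 102 CPM against 11.2, 3.84 and 3.14 CPM (log2 fold change 4.35, SE 0.54, adjusted p = 0.00144), and 5.15 (adjusted p = 0.00105) without LG replicate 1. NC_030809.1_1929, chosen after its values were seen because it was the most abundant predicted DE-miRNA, had 1648, 1729 and 632 CPM in LL, 100.05, 48.2 and 57.1 CPM in LG and 30.8, 41.1 and 12.3 CPM in the dry period, and the stages differed (log2 fold change 4.29, SE 0.47, adjusted p = 0.00133).

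Of the predicted miRNAs that fell, NC_030828.1_27139 was the most abundant of the leading 4, with 23.4, 38.9 and 38.9 CPM in LL against 236, 82.8 and 237 CPM in LG (log2 fold change −2.45, SE 0.42, adjusted p = 0.00517). LG replicate 2 lay well below the other LG libraries and still above those of LL. NC_030828.1_27646 had 0.529, 2.10 and 1.02 CPM against 16.4, 6.38 and 15.7 CPM (log2 fold change −3.38, SE 0.55, adjusted p = 0.00431), and NC_030829.1_27800 had 2.87, 2.04 and 2.74 CPM against 14.3, 29.7 and 12.2 CPM (log2 fold change −2.87, SE 0.39, adjusted p = 0.00205). NC_030832.1_31269 (log2 fold change −2.92, SE 0.71, adjusted p = 0.0199) had 0.907, 2.65 and 1.07 CPM against 2.82, 15.1 and 17.2 CPM, with 1 LG library close to the LL ones, and lost its call without LL replicate 1 (−2.66, adjusted p = 0.0698), LL replicate 3 (−2.68, adjusted p = 0.0613) or LG replicate 3 (−2.53, adjusted p = 0.0559).

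Both arms of a hairpin mostly moved together. Among 38 hairpins with at least 1 arm called, the log2 fold changes of both arms had the same sign in 37, and both arms were called in 18. Some of these called arms passed the filter mainly or only through the stage where they were higher. They include chi-miR-542-5p, chi-miR-450-3p, chi-miR-301a-3p and chi-miR-190a-3p, whose calls add nothing to the agreement of arms. Over 122 hairpins with both arms tested, the log2 fold changes of 5p and 3p arms had a Pearson r of 0.87 and a Spearman rho of 0.83. These values are across hairpins, which share libraries and are not independent replicates.

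The balance between the arms, which does not depend on how libraries are scaled, differed for 11 of 123 hairpins (8.94%) with limma on the log2 ratio of 5p to 3p counts. The 5p share was higher in LL for 3 and lower for 8. The 5p arm of miR-125b, the main product, exceeded the 3p arm by 24.9, 28.0 and 22.4 times in LL and 15.5, 15.2 and 15.2 times in LG (difference of the log2 ratio 0.71, SE 0.13, adjusted p = 0.00631). The ratio was nearly constant among the LG libraries and higher in each LL library. For let-7a the ratio was 57.8, 61.1 and 69.4 in LL and 95.6, 88.2 and 110.4 in LG (−0.64, SE 0.14, adjusted p = 0.0105), so that the 3p arm held a larger part in LL. let-7b had ratios of 194, 176 and 189 and 306, 281 and 273 (−0.62, adjusted p = 0.0152). For miR-3959 the ratio was 32.7, 38.3 and 29.6 in LL and 15.8, 16.4 and 10.4 in LG (1.26, SE 0.21, adjusted p = 0.00327).

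In a few hairpins the arm with more counts differed between the stages. The 5p to 3p ratio of miR-376b was 1.97, 1.51 and 2.32 in LL and 0.652, 0.755 and 0.812 in LG (1.37, adjusted p = 0.0105), with the 5p counts above the 3p counts in each LL library and below them in each LG library. The counts of chi-miR-376b-5p were equal to those of chi-miR-376e-5p in all libraries, so its reads cannot be assigned to 1 hairpin and the change is uncertain. For miR-502b it was 0.432, 0.825 and 0.77 in LL and 1.27, 1.32 and 2.31 in LG (−1.27, adjusted p = 0.0434), in the other direction. Counts of these 2 hairpins were low, at 17 to 123 per arm and library. miR-324 had 0.425, 0.621 and 0.536 in LL and 1.15, 1.05 and 0.969 in LG (−1.01, adjusted p = 0.0353). miR-29c, both of whose arms rose, had 2.24, 2.10 and 1.90 in LL and 4.81, 5.27 and 2.84 in LG (−1.003, adjusted p = 0.0105), and miR-195 had 0.0449, 0.0272 and 0.0583 and 0.0852, 0.0914 and 0.118 (−1.23, adjusted p = 0.0105). The hairpins of miR-199b and miR-199c had equal counts in all libraries, with 3p counts close to those of miR-199a, and count as 1 observation (−0.60, adjusted p = 0.0374). Their 3p reads cannot be assigned to 1 hairpin, so this change is uncertain too. Only let-7a, miR-125b and miR-3959 were called in each fit without 1 library, and with all 9 libraries in 1 fit limma called none (17 at an unadjusted p under 0.05).

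**Figure D5:**
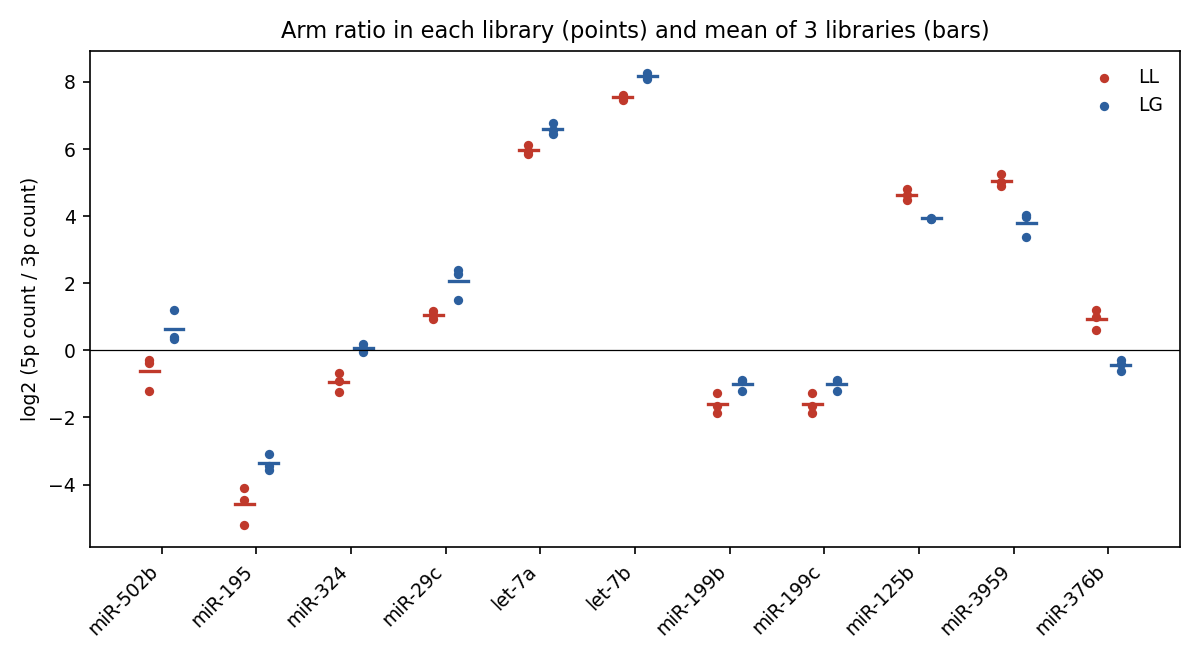
Log2 of the ratio of 5p to 3p counts in each library of LL (red) and LG (blue), with bars at the mean of 3 libraries, for the 11 hairpins whose ratio was called different. miR-376b and miR-502b cross 0 between the stages, miR-199b and miR-199c have equal counts, and the 5p counts of miR-376b equal those of miR-376e.

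Along the genome, 172 of the tested known miRNAs lay in 31 clusters of hairpins at most 10000 bases apart. Of the 172, 37 were called (21.5%), about the share of all 667 (21.1%). They lay in 10 clusters, and 8 held at least 2. In 7 of these 8 all calls went the same way, the exception being the distal cluster of chromosome 21 with chi-miR-323a-3p. Some of the 37 called miRNAs passed the filter mainly or only through LG, so that their direction adds nothing here. They include chi-miR-542-5p, chi-miR-450-3p, chi-miR-19b-5p, chi-miR-301a-3p and chi-miR-376a. Other calls were of both arms of the same hairpin. Clusters without a call included miR-200b, miR-200a and miR-429 (median −0.48), miR-182, miR-183 and miR-96 (−0.50), miR-143 and miR-145 (0.61), miR-23b/27b/24 (−0.16) and miR-221/222 (−0.02). Hairpins of a cluster can share a transcript, so their members may not be independent, and this was not tested.

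The place of the dry period was counted without a test. Of the 68 DE-miRNAs higher in LL, the mean of DP was above both stages for 26, between them for 21 and below both for 21. Of the 73 lower in LL, it was above both for 6, between them for 48 and below both for 19. Over all 667, these numbers were 129, 58 and 128 for the 315 with a positive log2 fold change and 105, 104 and 143 for the 352 with a negative one. chi-miR-29a-3p had 2061, 2799.9 and 3396 CPM in DP, above every library of LL and LG, whereas chi-miR-30a-5p had 2823, 3029 and 5321 CPM and chi-miR-107-3p 132.5, 108 and 154 CPM, below every one. DP libraries were scaled to the same reference and were in neither stage of the test.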

How the data were processed

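Small RNA of the mammary gland was sequenced in 6 libraries of LL and LG, 1 per goat, and 3 of DP. Reads were trimmed and mapped to ARS1.2, and miRDeep2 predictions were joined to the goat entries of miRBase. The counts per mature miRNA were deposited by the authors as they were, without normalization. The submitters' processing notes also list cutadapt 4.2, FastQC 0.11.9 and Bowtie 1.1.1. The column of LL replicate 3 holds 2 values that are not whole and was taken as an expected count per mature miRNA, which the authors made in the same way and deposited. It was rounded to whole numbers. The total per library was between 16451436 and 34378995 counts. Reads were counted without molecular identifiers, and the upper limit given for a miRNA at 0 counts covers counting error only.

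The members and lists were chosen with earlier results of these data known. Counts were tested with edgeR 4.0.16 (R 4.3.3, glmQLFit and glmQLFTest, TMM, stage as the only term) in the 6 libraries, and adjusted by the Benjamini-Hochberg method. The SE is the absolute log2 fold change divided by the root of F. DP libraries were scaled to the same TMM reference. The log2 ratio of 5p to 3p counts (pseudocount 0.5, mean of at least 10 counts per arm) was tested with limma 3.58.1 (eBayes with trend). The procedures were tested on simulated data. Loci, for 430 of the 436 known miRNAs, are those of RefSeq for ARS1.2, without regard to strand.

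Named were the 12 known miRNAs with the largest rise and fall and the 4 predicted ones among DE-miRNAs of at least 10 CPM in the higher stage without overlap, the 10 most abundant of each stage, up to 6 members per list by level plus its DE-miRNAs, and up to 8 hairpins by arm ratio. Alternatives were all 9 libraries in 1 fit, DESeq2 1.42.0, limma-voom, scaling by upper quartile, by library size only or by TMM without chi-miR-148a-3p, other filters (none, or 10 counts in each of the 6), a block for the replicate number, and leaving out each library. For arm ratios they were a pseudocount of 2 and a minimum of 50 counts. TMM against each library as reference was added after the data were seen. P-values measure the spread between 3 goats. Equal counts of another miRNA were found for 35 tested miRNAs, 4 of them called, which are uncertain as separate miRNAs.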

Additional observations from a re-analysis of the deposited data

Results flagged for a closer look

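Of the miRNAs left out of the comparison, 14 had at least 0.5 CPM (scaled by library size) in each of the 3 DP libraries. The highest mean was that of the predicted NC_030823.1_21668, with 3.00, 3.04 and 1.20 CPM in DP, and the known miRNA with the highest mean was chi-miR-2483-3p, with 1.97, 1.41 and 1.83 CPM. No library of LL or LG exceeded 0.845 CPM for the first and 0.691 CPM for the second.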

How the results depend on the processing

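With all 9 libraries in 1 fit, 90 DE-miRNAs were called (46 higher, 44 lower), with 37 against 58 in the lists, 3 in the miR-424, miR-450 and miR-542 cluster and 9 in DLK1-DIO3. Library size only gave 37 higher and 123 lower, with 3 in miR-29, 14 in miR-17-92 and 28 in DLK1-DIO3. No filter gave 12 in miR-17-92. Under upper quartile scaling, TMM without chi-miR-148a-3p, DESeq2, limma-voom and TMM against each library as reference (chosen after the data were seen), the counts of all DE-miRNAs and of those in all lists together stayed within 1.5 times those reported. In the smooth muscle and myoepithelium list, upper quartile scaling, TMM without chi-miR-148a-3p, DESeq2, limma-voom, the replicate block and 5 of the 6 reference libraries called 1 miRNA where 0 are reported. Each library left out gave 49 to 71 higher and 56 to 74 lower, and 2 to 5 in the immune cell list. For arm ratios, all 9 libraries in 1 fit called 0 (17 at an unadjusted p under 0.05 with limma), and each library left out 8 to 16. The shares of ranks 2 to 10 were 59.1% (LL) and 60.3% (LG) without chi-miR-148a-3p.

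Same-numbered libraries are different goats, and their deviations had correlations of −0.06 to 0.28, with 3 of 6 libraries closest to their own number. The replicate block gave 137 DE-miRNAs and 25 arm ratio calls. Of 156 named miRNAs, no called one changed direction under any alternative run. Calls were lost for 22 of them with all 9 libraries in 1 fit (among them chi-miR-451-5p, chi-miR-335-5p, chi-miR-424-5p, chi-miR-424-3p, chi-miR-450-5p, chi-miR-92a-3p and chi-miR-136-5p), 10 with library size only, 3 with the replicate block and between 8 and 17 with 1 library left out, and the cause was not tested. With 3 goats per stage, leaving out 1 library left 2 in its stage.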

Other observations

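Some known miRNAs outside the lists were also called higher in LL, chosen here after their values were seen. chi-miR-490, which lies in the muscarinic receptor gene CHRM2, had 12.2, 5.05 and 6.37 CPM in LL against 1.06, 1.70 and 1.86 CPM in LG (log2 fold change 2.34, SE 0.41, adjusted p = 0.00527 with edgeR), and chi-miR-2483-5p, in TENM1, had 3.48, 1.56 and 1.95 CPM against 0.696, 0.786 and 0.367 CPM (log2 fold change 1.93, SE 0.44, adjusted p = 0.0143). Both were called in each fit without 1 library. Both arms of miR-338, in AATK, were called at means of 7.45 and 8.34 CPM in LL, as were both arms of miR-190a, in TLN2. chi-miR-190a-3p passed the filter through LL only, so its call adds nothing to that of the other arm. The call was lost without LL replicate 3 (log2 fold change 0.85), LG replicate 2 (1.25) or LG replicate 3 (1.16) for chi-miR-338-3p, without any 1 library but LL replicate 1 for chi-miR-338-5p (0.77 to 1.23), without LL replicate 1 (0.93) for chi-miR-190a-5p and without LG replicate 1 (1.43), LG replicate 2 (1.54) or LG replicate 3 (1.47) for chi-miR-190a-3p, and with library size only none of the 4 passed.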
